A study of Mus musculus with 12 samples.

Results

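Epithelial and mesenchymal state genes were examined in mouse embryonic stem cells (ESCs) that express PRAMEL7 or a truncated form of it. The group was fixed by name and holds 9 of the 50978 genes in the deposited table: *Cdh1*, *Epcam*, *Esrp1*, *Cdh3*, *Cdh2*, *Vim*, *Snai1*, *Zeb1* and *Zeb2*. All 9 have 1 row each, and 8 of them were among the 12914 genes above 1 CPM (a count of reads scaled to the library's depth) in at least 2 libraries, which were tested. *Zeb2* lay below that limit.

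RNA had been sequenced from 3 lines of E14 ESCs grown without feeders in 15% serum and LIF, with 2 replicate libraries per line. The study's text does not say whether replicates came from separate cultures. Parental ESCs carry no transgene. The line ESC + H/F-PRAMEL7WT (PRAMEL7WT ESCs below) carries HA/FLAG-tagged PRAMEL7, and ESC + H/F-PRAMEL7ΔN (PRAMEL7ΔN ESCs) carries a tagged form which lacks part of the N-terminus, 50 amino acids by the sample labels and fewer by the study's text. Both sequences had been inserted with Cas9 at *Rosa26* under the CAG promoter, which is active in most cell types, and clones had been grown from single puromycin-resistant cells. With 1 derived line per construct, an effect of the construct and one of the clone cannot be told apart. The p-values measure the spread between replicate libraries only. A single estimate of that spread per gene was shared by the 3 lines, although the lines differed in spread.

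Each library held 18248622 to 19849522 reads on genes. Replicates of a line correlated across 8913 genes above 10 CPM with r = 0.985 in parental ESCs, 0.997 in PRAMEL7WT ESCs and 0.993 in PRAMEL7ΔN ESCs, so the parental pair was the most variable. In parental ESCs *Pramel7* itself had 0.237 ± 0.029 CPM, against 48.7 ± 3.49 in PRAMEL7WT ESCs and 414.3 ± 23.5 in PRAMEL7ΔN ESCs (SD, n = 2 each), and the values do not separate transgene from endogenous reads. All 10 markers of pluripotent ESCs exceeded 1 CPM, with sums of 5410 to 6369 CPM per library. Of 10 embryonic fibroblast markers 4 did so, and *Lum*, *Dcn* and *Fap* had no reads in any library.

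Epithelial cells are held together by E-cadherin, the product of *Cdh1*, which binds its like on the neighbouring cell and is anchored to actin through catenins. During an epithelial-to-mesenchymal transition (EMT), repressors of the SNAIL and ZEB families bind E-box sequences at epithelial genes, E-cadherin gives way to N-cadherin (*Cdh2*), and the intermediate filament vimentin (*Vim*) accumulates. Mouse ESCs grow as compact, E-cadherin-rich colonies and lose that form when they exit pluripotency. The comparisons ask how far the genes of these states differed between parental ESCs and the line with either form of PRAMEL7.

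**Figure D1:**
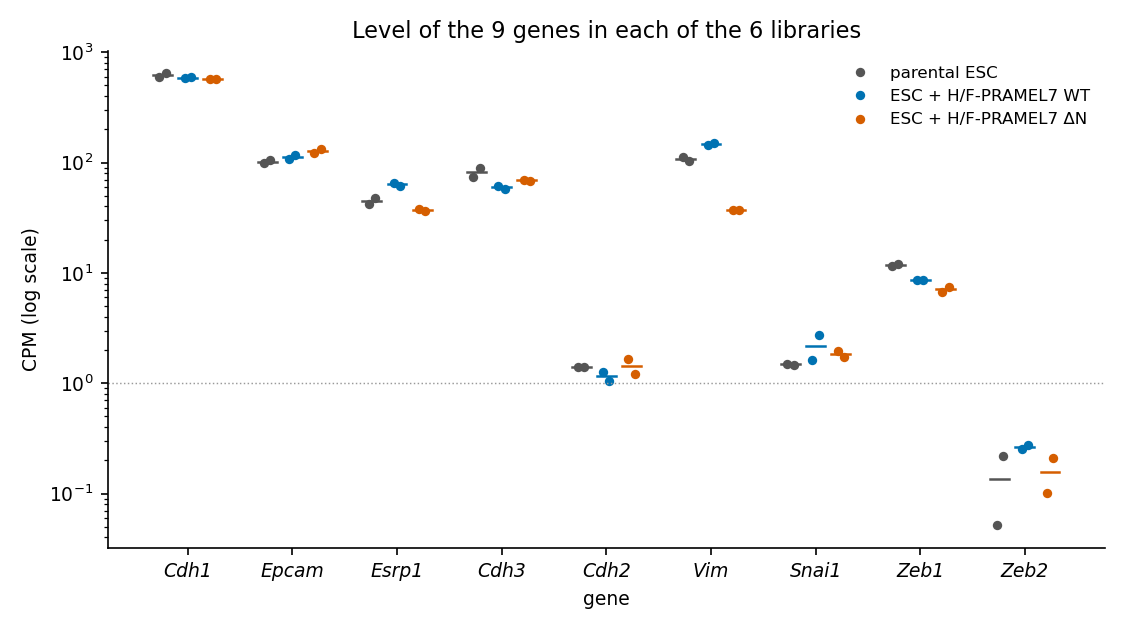
Level of each of the 9 genes in the 6 libraries, as CPM on a log scale. Points are libraries, short bars are the means of the 2 libraries of a line, and the dotted line marks 1 CPM. *Vim* in PRAMEL7ΔN ESCs (36.8 and 37.5 CPM) stands apart from its level in the other lines, whereas *Cdh1* lies between 574.2 and 644.0 CPM throughout.

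Epithelial adhesion genes were high and EMT repressors low in all 3 lines. Levels of different genes were compared per kilobase of merged exons. The parental level of *Cdh1* was 135.8 ± 7.12 CPM per kilobase (SD, n = 2), followed by *Epcam* with 46.4 ± 2.04, *Vim* with 22.6 ± 1.29, *Cdh3* with 18.7 ± 2.41 and *Esrp1* with 7.16 ± 0.638. *Zeb1* had 1.14 ± 0.029, *Snai1* 0.913 ± 0.014, *Cdh2* 0.174 ± 0.0015 and *Zeb2* 0.00673 ± 0.00586 CPM per kilobase. No neighbours in this order overlapped between libraries, although *Cdh2*, *Snai1* and *Zeb2* rest on few reads. The order changed in 2 places. In PRAMEL7ΔN ESCs, *Vim* (7.83 ± 0.103) stood below *Cdh3* (15.7 ± 0.367) on the per-kilobase scale. In both derived lines *Snai1* stood above *Zeb1*, with 1.35 ± 0.494 against 0.840 ± 0.00264 in PRAMEL7WT ESCs and 1.14 ± 0.094 against 0.690 ± 0.049 in PRAMEL7ΔN ESCs.

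**Figure D2:**
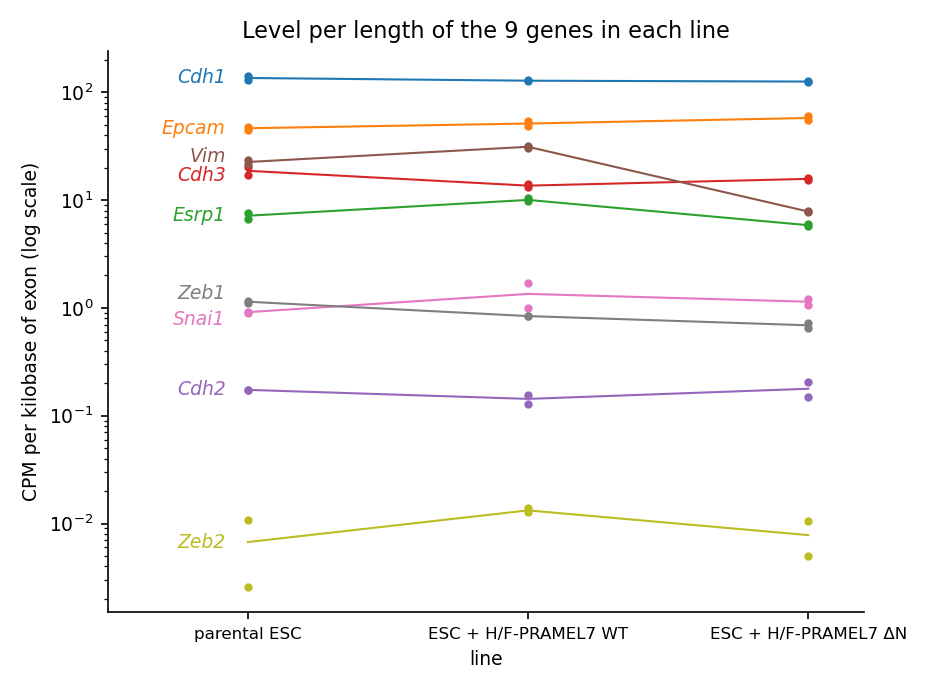
Level per length of the 9 genes, as CPM per kilobase of merged exons on a log scale, in the 3 lines. Points are the libraries and lines join the means. The line for *Vim* crosses that for *Cdh3* between PRAMEL7WT ESCs and PRAMEL7ΔN ESCs, and those for *Snai1* and *Zeb1* cross between parental ESCs and PRAMEL7WT ESCs.

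*Cdh1*, on chromosome 8 (GRCm38, 106603351 to 106670246, + strand), had 597.9 and 644.0 CPM in parental ESCs, 581.2 and 590.7 in PRAMEL7WT ESCs, and 574.2 and 576.1 in PRAMEL7ΔN ESCs. Both parental libraries were above all 4 derived ones, by a margin smaller than the gap between the parental libraries. The log2 fold change against parental ESCs, here and below from log2(CPM + 1), was -0.08 in PRAMEL7WT ESCs (95% confidence interval -0.26 to 0.10, limma adjusted p = 0.476). In PRAMEL7ΔN ESCs it was -0.11 (-0.29 to 0.07, limma adjusted p = 0.382). These intervals leave room for a decrease of *Cdh1* by 0.29 on the log2 scale, and the sign in PRAMEL7WT ESCs turned to 0.0063 under median-ratio scaling.

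*Epcam*, which encodes an adhesion molecule of epithelia that marks undifferentiated ESCs, lies on chromosome 17 (87635979 to 87651129, + strand). Its promoter is shown because E-boxes are the sites that SNAIL and ZEB repressors recognise. The stretch covers the 250 bases before the RefSeq start, chr17:87635729-87635978 (GRCm38.p6, + strand), with the E-box letters CACCTG on either strand in capitals.
Epcam: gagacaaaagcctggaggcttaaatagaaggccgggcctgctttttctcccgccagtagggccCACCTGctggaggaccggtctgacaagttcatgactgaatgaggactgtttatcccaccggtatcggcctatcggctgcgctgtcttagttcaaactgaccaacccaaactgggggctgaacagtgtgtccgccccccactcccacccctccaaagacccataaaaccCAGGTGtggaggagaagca
The letters occurred at 2 places, at positions -187 and -19 from the start (first letter). Of 32851 promoter windows of the same length in the RefSeq table, 17.2% held the letters on either strand at least once and 2.06% at least 2 times. The table had entries for 4 of the 9 genes (*Epcam*, *Vim*, *Snai1* and *Zeb2*), and a match describes letters only, not a bound site.

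*Epcam* had 98.7 and 105.0 CPM in parental ESCs, 107.0 and 118.2 in PRAMEL7WT ESCs, and 121.5 and 132.2 in PRAMEL7ΔN ESCs. The libraries of the 3 lines did not overlap, with parental ESCs lowest and PRAMEL7ΔN ESCs highest. Those of *Cdh1*, which was not called, did not overlap either. With 2 libraries per line such separation carries little weight, here and below. *Epcam* rose in PRAMEL7ΔN ESCs with a log2 fold change of 0.31 (standard error 0.09, limma adjusted p = 0.0431). This call was lost in 8 of 20 alternative settings. Without replicate 1 or 2 of PRAMEL7ΔN ESCs the limma adjusted p was 0.112 and 0.253, and without either library of PRAMEL7WT ESCs, which leaves the fold as it is, 0.0888 and 0.0889. It was also lost with no filter, without a trend in the variance, in RPKM and with only the compared lines. The log2 fold change in PRAMEL7WT ESCs was 0.14 (limma adjusted p = 0.285), and the derived lines did not differ past the threshold (-0.17, 95% interval -0.38 to 0.04, limma adjusted p = 0.225).

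*Esrp1* encodes an RNA-binding protein that directs epithelial splice forms, and it lies on chromosome 4 (11331933 to 11386783, - strand). Its level was 42.3 and 48.0 CPM in parental ESCs, 65.3 and 61.3 in PRAMEL7WT ESCs, and 37.6 and 36.2 in PRAMEL7ΔN ESCs. The line with the full-length protein was highest, the line with the truncated one lowest, and no libraries of different lines overlapped. *Esrp1* rose in PRAMEL7WT ESCs, 1.40-fold in the ratio of mean CPM, with a log2 fold change of 0.48 (standard error 0.10, limma adjusted p = 0.0106). The value in PRAMEL7ΔN ESCs was -0.28 (limma adjusted p = 0.0874), which passed without parental replicate 1 (limma adjusted p = 0.0134). Compared directly, *Esrp1* was 1.72-fold higher in PRAMEL7WT ESCs than in PRAMEL7ΔN ESCs (log2 difference 0.76, standard error 0.10, limma adjusted p = 0.00122). This difference passed in each of 19 alternatives that could test the gene, whereas the rise over parental ESCs was lost without either library of PRAMEL7WT ESCs (limma adjusted p up to 0.117). The antisense gene *Gm26663* shares 127 exonic bases with *Esrp1* and had at most 4 reads in any library. The RNA kit does not mark the strand.

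*Cdh3*, the gene for P-cadherin, lies 46.1 kb before *Cdh1* on chromosome 8 (106510891 to 106557297, + strand). It had 74.5 and 89.4 CPM in parental ESCs, 61.3 and 58.1 in PRAMEL7WT ESCs, and 70.2 and 67.9 in PRAMEL7ΔN ESCs. Again the lines did not overlap, but here parental ESCs were highest and their libraries were the farthest apart. *Cdh3* fell in PRAMEL7WT ESCs with a log2 fold change of -0.45 (standard error 0.11, limma adjusted p = 0.0161), a call lost without either library of that line (adjusted p up to 0.134). In PRAMEL7ΔN ESCs it had -0.24 (limma adjusted p = 0.151), which passed without parental replicate 1 (limma adjusted p = 0.00862). The derived lines differed by -0.21 (95% interval -0.45 to 0.03, limma adjusted p = 0.199).

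Among the mesenchymal genes, *Vim* gave the largest differences of the 8 tested genes in both comparisons that involve PRAMEL7ΔN ESCs. It lies on chromosome 2 (13573927 to 13582826, + strand). A 30-base stretch before its RefSeq start, chr2:13574267-13574296 (GRCm38.p6, + strand), is shown with the letters TATAAA in capitals, since this box sets it apart from the promoter of *Epcam*.
Vim: tcctaacagtgtTATAAAagcagcgccctt
The box starts 32 bases before the start and occurs on the given strand in 7.59% of the promoter windows. The 250 bases before that start held no E-box letters. They lie inside the gene span given above, so the sequence before the start of that span was not searched.

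*Vim* had 111.4 and 102.7 CPM in parental ESCs, 144.5 and 151.8 in PRAMEL7WT ESCs, and 36.8 and 37.5 in PRAMEL7ΔN ESCs. Both libraries of PRAMEL7ΔN ESCs were far below all others, and both of PRAMEL7WT ESCs were above the parental ones. *Vim* fell 2.88-fold in PRAMEL7ΔN ESCs relative to parental ESCs, from 107.1 ± 6.14 to 37.1 ± 0.49 CPM (SD, n = 2), with a log2 fold change of -1.50 (standard error 0.09, limma adjusted p = 1.14e-05). It rose 1.38-fold in PRAMEL7WT ESCs, to 148.1 ± 5.18 CPM, with a log2 fold change of 0.47 (standard error 0.09, limma adjusted p = 0.00683). The derived lines differed 3.99-fold (log2 difference 1.97, standard error 0.09, limma adjusted p = 1.57e-06). The fall and the difference between the derived lines passed in all 20 alternatives, and the rise in PRAMEL7WT ESCs was lost without either of that line's libraries (limma adjusted p up to 0.0897). In a bulk sample, fewer cells with a transcript and less of it per cell cannot be told apart.

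*Cdh2*, the gene for N-cadherin on chromosome 18 (16588877 to 16809246, - strand), was near the detection limit in every line. It had 27 and 26 reads in parental ESCs, 25 and 19 in PRAMEL7WT ESCs, and 33 and 23 in PRAMEL7ΔN ESCs, or 1.05 to 1.66 CPM. The libraries of PRAMEL7ΔN ESCs spanned those of parental ESCs. Its log2 fold change was -0.16 (-0.57 to 0.25) in PRAMEL7WT ESCs and 0.01 (-0.39 to 0.42) in PRAMEL7ΔN ESCs, with limma adjusted p = 0.552 and 0.968.

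The EMT repressors were low. *Snai1*, on chromosome 2 (167538195 to 167542814, + strand), had 29 and 27 reads in parental ESCs, 32 and 50 in PRAMEL7WT ESCs, and 39 and 33 in PRAMEL7ΔN ESCs. Only replicate 2 of PRAMEL7WT ESCs, with 2.75 CPM, lay above 2 CPM. The log2 fold change was 0.34 (-0.12 to 0.80, limma adjusted p = 0.245) in PRAMEL7WT ESCs and 0.20 (-0.26 to 0.66, limma adjusted p = 0.541) in PRAMEL7ΔN ESCs. The 250 bases before its RefSeq start held the E-box letters at 1 place, 126 bases before the start, and 27 CG dinucleotides, against a median of 6 (interquartile range 2 to 16) over all windows.

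*Zeb1*, on chromosome 18 (5591860 to 5775467, + strand), had 11.5 and 11.9 CPM in parental ESCs, 8.60 and 8.64 in PRAMEL7WT ESCs, and 6.72 and 7.44 in PRAMEL7ΔN ESCs. Parental ESCs were highest and the lines did not overlap. *Zeb1* fell in PRAMEL7ΔN ESCs with a log2 fold change of -0.65 (standard error 0.14, limma adjusted p = 0.00993), and this call was lost without replicate 1 of that line (limma adjusted p = 0.0875). Its value in PRAMEL7WT ESCs was -0.40 (-0.71 to -0.09, limma adjusted p = 0.0575), which passed in 3 of 19 alternatives. The difference between the derived lines was 0.25 (limma adjusted p = 0.218), so that a fall particular to PRAMEL7ΔN ESCs was not shown. *Gm10125*, antisense to *Zeb1* over 198 exonic bases, had at most 3 reads. *Zeb2*, on chromosome 2 (44983632 to 45117395, - strand), had 1 and 4 reads in parental ESCs, 5 and 5 in PRAMEL7WT ESCs, and 2 and 4 in PRAMEL7ΔN ESCs, and no difference was detectable at this depth.

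**Figure D3:**
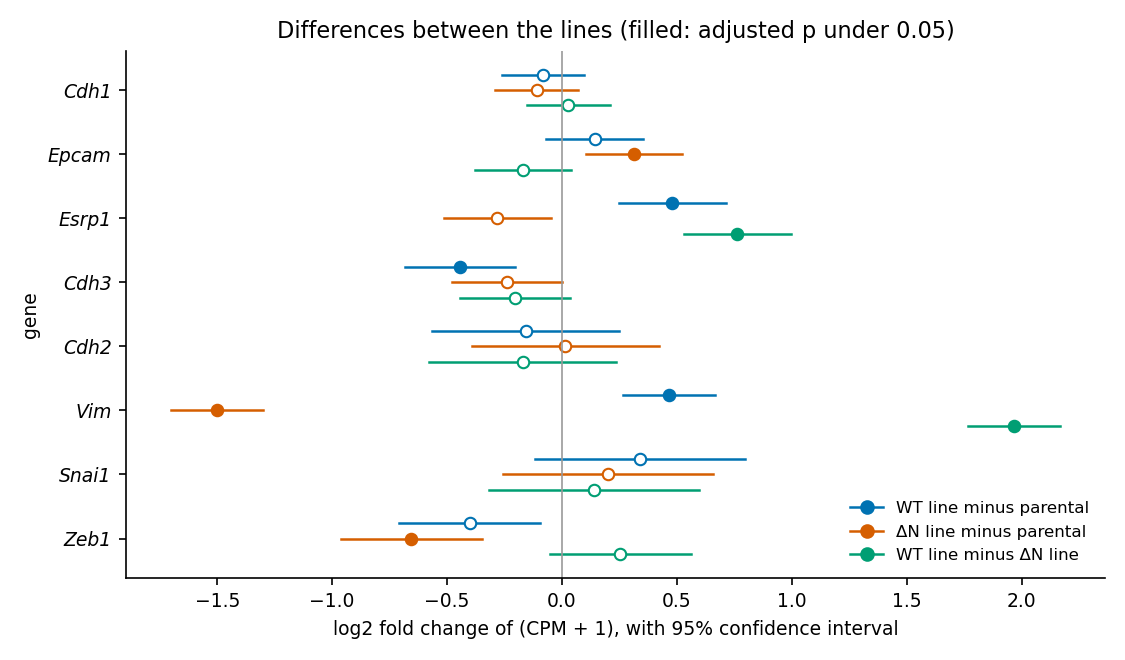
Log2 fold change of (CPM + 1) of the 8 tested genes, with 95% confidence intervals, for PRAMEL7WT ESCs over parental ESCs, PRAMEL7ΔN ESCs over parental ESCs and PRAMEL7WT ESCs over PRAMEL7ΔN ESCs. Filled points passed an adjusted p of 0.05. *Vim* lies at -1.50 in the second comparison and 1.97 in the third, whereas *Cdh1*, *Cdh2* and *Snai1* have no filled point.

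Counted together, 3 of the 8 tested genes passed in PRAMEL7WT ESCs (*Esrp1* and *Vim* higher, *Cdh3* lower), against 25.0% of all tested genes. In PRAMEL7ΔN ESCs 3 passed (*Epcam* higher, *Vim* and *Zeb1* lower), against 19.9%. Between the derived lines 2 passed (*Esrp1* and *Vim*, both higher in PRAMEL7WT ESCs), against 20.4% (10.9% higher and 9.44% lower). Because both comparisons with parental ESCs use the same 2 parental libraries, their results are not independent of each other. Whether the members changed more often than other genes was not tested. Their medians were 0.03, -0.17 and 0.08 on the log2 scale, against -0.08, -0.06 and -0.02 over all tested genes. Over all genes, 34.8% of the calls in PRAMEL7WT ESCs and 31.4% of those in PRAMEL7ΔN ESCs were higher than parental ESCs, and 52.8% and 45.1% under median-ratio scaling, which left the members' calls as they were. With an added limit of 0.58 on the absolute log2 fold change, 0 members passed in PRAMEL7WT ESCs (12.5% of all genes), also with an unadjusted p. *Vim* and *Zeb1* passed in PRAMEL7ΔN ESCs (11.3%), and *Esrp1* and *Vim* passed between the derived lines (11.3%). The counts of 3 changed when single libraries were left out, as did the counts over all genes. The members' median then lay between -0.02 and 0.08 in PRAMEL7WT ESCs and between -0.27 and -0.08 in PRAMEL7ΔN ESCs.

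Some whole chromosomes differed in level between these lines. The median log2 fold change of chromosome 11 was -0.36 in PRAMEL7WT ESCs and -0.33 in PRAMEL7ΔN ESCs, and that of chromosome 6 was -0.26 and 0.25. The chromosomes with a member did not stand apart in this way. For chromosomes 2, 4, 8, 17 and 18 the median log2 fold change lay between -0.08 and 0.00 in PRAMEL7WT ESCs and between -0.04 and -0.02 in PRAMEL7ΔN ESCs. A whole-chromosome median cannot show a shift of only part of a chromosome. For *Vim* in PRAMEL7ΔN ESCs, the log2 fold change minus the median of the 1025 tested genes of chromosome 2 was -1.47.

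The genes with the pattern most like that of *Vim* and *Cdh1* across the 6 libraries were found by Pearson's r on the log2 scale, among genes with a mean over the 6 libraries of at least 10 CPM and a range of at least 0.58. A gene could thus pass through the lines where it is high, and *Eif2s3y*, *Serpinf1* and *Rcn3* had means below 10 CPM in PRAMEL7ΔN ESCs (0.675, 6.48 and 9.53). For *Vim* these were *Gatb* (r = 0.9995), *Eif2s3y* (0.998) and *Serpinf1* (0.998), out of 3092 genes. *Eif2s3y*, a translation factor gene on the Y chromosome, had 22.1 CPM on average in parental ESCs and 44.8 in PRAMEL7WT ESCs. For *Cdh1* the nearest were *Ttyh2* (0.990), *Rcn3* (0.984) and *Fra10ac1* (0.983). The 6 points of each r are 3 lines of 2 libraries, and *Cdh1* itself spanned 0.17 on the log2 scale.

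Other genes of the epithelial and mesenchymal states were taken from 7 lists. Their counts stand beside the shares of all tested genes called higher and lower, which were 8.71% and 16.3% in PRAMEL7WT ESCs, 6.25% and 13.6% in PRAMEL7ΔN ESCs, and 10.9% and 9.44% in the former against the latter. These shares hold for the fit without left-out libraries or changed settings. In the other fits the count over all genes changed too, so list counts from them have no share beside them. Of 12 genes of the cadherin-catenin complex, which links cadherins and nectins to actin, 10 were tested. In PRAMEL7WT ESCs 4 of them rose (*Nectin1*, *Nectin2*, *Jup* and *Ctnna1*, against 8.71% of all genes), while 6 did not pass, with a list median of 0.05. Each of the 4 calls was lost without either library of PRAMEL7WT ESCs, so that the count ran from 0 to 4 with single libraries left out. The limma adjusted p then reached 0.113 for *Nectin1*, 0.148 for *Nectin2*, 0.161 for *Jup*, which was lost in 6 of 20 alternatives in all, and 0.218 for *Ctnna1*, which was lost in 8 of 20. In PRAMEL7ΔN ESCs *Nectin1* and *Ctnna1* rose (against 6.25% of all genes) and *Ctnnd2* fell (13.6%), with a median of 0.13. *Ctnnd2*, a δ-catenin gene named after its values were seen, had 2.97 ± 0.778 CPM in parental ESCs and 1.51 ± 0.419 there, and its call (limma adjusted p = 0.0471) held in 5 of 18 alternatives. *Ctnna1*, which encodes the α-catenin that couples E-cadherin to actin, had 736.1 and 718.6 CPM in parental ESCs, 921.0 and 865.0 in PRAMEL7WT ESCs, and 1201 and 1229 in PRAMEL7ΔN ESCs. It was highest in PRAMEL7ΔN ESCs, with a log2 fold change of 0.74 (limma adjusted p = 0.000471), and lower in PRAMEL7WT ESCs than there (log2 difference -0.44, limma adjusted p = 0.00526, up to 0.0853 without replicate 2 of either line). *Nectin1*, a nectin of adherens junctions, rose in both lines, by 0.53 and 0.74 on the log2 scale (limma adjusted p = 0.011 and 0.00261). *Jup*, the gene for plakoglobin, rose by 0.33 in PRAMEL7WT ESCs (limma adjusted p = 0.0221) although the median of its chromosome 11 was -0.36 there.

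Of the 16 other cadherins listed, 2 were tested, *Cdh4* and *Cdh24*, named here after their values were seen. The other 14 reached at most 0.929 CPM in any library. *Cdh4*, the gene for R-cadherin, measured 2.51 ± 0.099 CPM in parental ESCs, 6.87 ± 0.301 in PRAMEL7WT ESCs and 1.99 ± 0.544 in PRAMEL7ΔN ESCs (SD, n = 2 each). It rose in PRAMEL7WT ESCs (log2 fold change 1.17, limma adjusted p = 0.00265) and differed between the derived lines (1.41, limma adjusted p = 0.000828). *Cdh24* passed in no comparison.

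All 25 genes of epithelial junctions and polarity were tested. In PRAMEL7WT ESCs 5 rose (against 8.71% of all genes) and 4 fell (16.3%), with a median of 0.19. The 4 were *Evpl* (-0.64), *Marveld2* (-0.62), *Tjp1* (-0.44) and *Pkp2* (-0.35), with limma adjusted p = 0.0222, 0.0161, 0.00635 and 0.0331. *Evpl*, *Marveld2* and *Tjp1* were named after their values were seen, and the call of *Pkp2* held in 7 of 19 alternatives. With single libraries left out, 1 to 11 rose and 0 to 5 fell. In PRAMEL7ΔN ESCs 5 rose (6.25%) and 1 fell (13.6%), with a median of 0.15, and 1 to 10 rose and 0 to 4 fell with single libraries left out. Under median-ratio scaling 9 rose there. Between the derived lines 2 were higher (10.9%) and 4 lower (9.44%) in PRAMEL7WT ESCs, or 0 to 4 and 0 to 5 with single libraries left out (median 0.01). *Cldn4*, a tight junction claudin, had 77.1 and 98.2 CPM in parental ESCs, 164.0 and 173.6 in PRAMEL7WT ESCs, and 115.8 and 103.3 in PRAMEL7ΔN ESCs. It rose in PRAMEL7WT ESCs by 0.95 on the log2 scale (limma adjusted p = 0.00137) in all 20 alternatives. *Perp*, a desmosomal gene, rose in both lines, by 0.75 and 1.39 (limma adjusted p = 0.0128 and 0.000774), and *Cldn6* by 0.62 and 0.50 (limma adjusted p = 0.00316 and 0.00739). *Pkp2*, a plakophilin, fell in PRAMEL7ΔN ESCs too (-0.53, limma adjusted p = 0.00624), and the derived lines did not differ past the threshold (0.18, limma adjusted p = 0.223). *Ocln*, the gene for occludin, differed between the derived lines, with 10.9 ± 0.09 CPM in PRAMEL7WT ESCs and 18.2 ± 2.43 in PRAMEL7ΔN ESCs (SD, n = 2, limma adjusted p = 0.0132). *Dsp*, the gene for desmoplakin, rose by 0.64 in PRAMEL7ΔN ESCs (limma adjusted p = 0.0215). Apart from *Perp* in PRAMEL7ΔN ESCs, these calls from *Perp* on were lost without 1 or either library of a derived line compared. The limma adjusted p then reached 0.103 for *Perp* in PRAMEL7WT ESCs, 0.0503 and 0.0866 for *Cldn6*, 0.0574 for *Pkp2*, 0.138 for *Ocln* and 0.132 for *Dsp*.

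**Figure D4:**
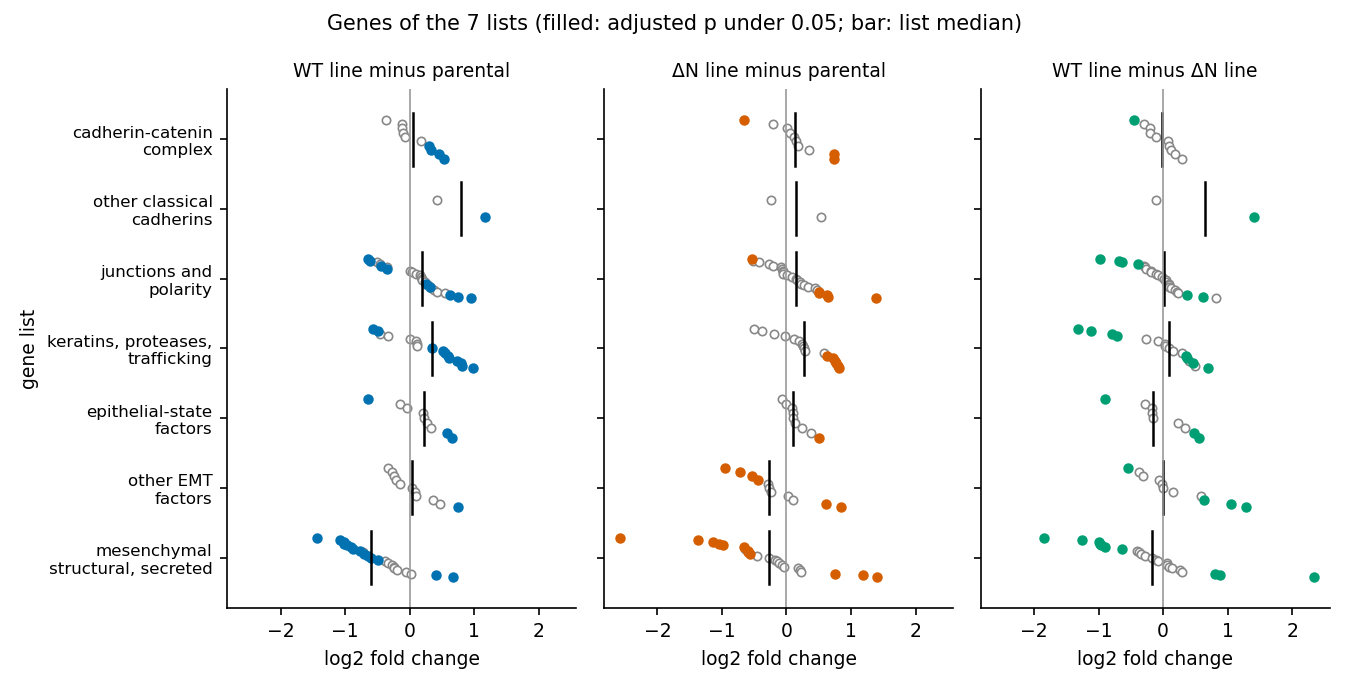
Log2 fold changes of the tested genes of 7 lists in the 3 comparisons. Each point is a gene, filled points passed an adjusted p of 0.05, and black bars are list medians. Most filled points of the mesenchymal list lie left of zero in the first panel (12 against 2) and those of the keratin, protease and trafficking list lie mostly right of it (9 against 2).

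Of the epithelial keratins, proteases and trafficking genes, 17 of 18 were tested. In PRAMEL7WT ESCs 9 rose (against 8.71% of all genes) and 2 fell (16.3%), with a median of 0.34. With single libraries left out 3 to 8 rose and 0 to 3 fell, with the replicate block 6 rose and 1 fell, and under median-ratio scaling 9 rose and 0 fell. In PRAMEL7ΔN ESCs 6 rose (6.25%), with a median of 0.28, and 3 to 8 rose with single libraries left out or 9 under median-ratio scaling. *St14*, the gene for the membrane protease matriptase, rose in both lines (0.81 and 0.72, limma adjusted p = 0.00116 and 0.00135), and *Spint1*, which encodes its inhibitor, rose in PRAMEL7WT ESCs (0.74, limma adjusted p = 0.00157). *Ap1m2*, a subunit of the epithelial sorting adaptor, rose in both lines (0.55 and 0.81, limma adjusted p = 0.00371 and 0.00052). *Elf3*, an epithelial ETS factor, rose in PRAMEL7WT ESCs (0.61, limma adjusted p = 0.00552). In that line the call of *Elf3* was lost without either of its libraries and that of *Ap1m2* without replicate 1 (limma adjusted p up to 0.0636 and 0.0566).

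Between the derived lines, 4 genes of this list were higher in PRAMEL7WT ESCs and 4 lower (median 0.09), against 10.9% and 9.44% of all genes. With the replicate block these counts were 2 and 4. Of the 4 keratins of this list, *Krt8*, *Krt18* and *Krt19* differed between the derived lines and *Krt7* did not pass. *Krt18* had 13.2 and 16.6 CPM in parental ESCs, 10.0 and 10.5 in PRAMEL7WT ESCs, and 22.7 and 24.2 in PRAMEL7ΔN ESCs. *Krt8*, its filament partner, had 14.1 and 17.8, 16.8 and 15.2, and 27.5 and 29.0 CPM in the same order. *Krt19* had 14.7 and 20.6, 10.8 and 12.0, and 33.6 and 26.8 CPM. For each of them, both libraries of PRAMEL7ΔN ESCs were above all 4 others. All 3 rose in PRAMEL7ΔN ESCs (0.63, 0.79 and 0.75, limma adjusted p = 0.0135, 0.00439 and 0.0152) and were lower in PRAMEL7WT ESCs than there (-1.12, -0.79 and -1.33, limma adjusted p = 0.000813, 0.00453 and 0.00101). The rises of *Krt18* and *Krt19* were lost without replicate 1 of PRAMEL7ΔN ESCs, that of *Krt18* also without replicate 2 (limma adjusted p up to 0.103 and 0.143), and the difference of *Krt8* without replicate 2 of either derived line (up to 0.0649). *Krt7*, named after its values were seen, lay the other way, with 3.17 ± 1.57 CPM in parental ESCs, 3.37 ± 0.760 in PRAMEL7WT ESCs and 2.08 ± 0.035 in PRAMEL7ΔN ESCs (SD, n = 2 each). Its log2 difference between the derived lines was 0.49 (limma adjusted p = 0.195). *Krt18* and *Krt19* also fell in PRAMEL7WT ESCs, but these calls held in 10 and 5 of 19 alternatives only and were lost under median-ratio scaling, and chromosome 11, with *Krt19*, had a median of -0.36 there. *Krt8* and *Krt18* have processed pseudogenes with which they could have shared reads.

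Of 12 factors that keep an epithelial state 9 were tested, with 2 higher (against 8.71% of all genes) and 1 lower (16.3%) in PRAMEL7WT ESCs (median 0.22) and 1 higher (6.25%) in PRAMEL7ΔN ESCs (median 0.10). With single libraries left out, 0 to 3 were higher and 0 to 1 lower in PRAMEL7WT ESCs, and 0 to 3 higher in PRAMEL7ΔN ESCs. Between the derived lines 2 were higher (10.9%) and 1 lower (9.44%) in PRAMEL7WT ESCs, with a median of -0.15. *Grhl2*, a grainyhead factor that activates *Cdh1* in epithelia, had 26.3 and 26.9 CPM in parental ESCs, 41.3 and 43.8 in PRAMEL7WT ESCs, and 29.1 and 28.0 in PRAMEL7ΔN ESCs. It rose in PRAMEL7WT ESCs (0.66, limma adjusted p = 0.00296) and differed between the derived lines (0.56, limma adjusted p = 0.00547). *Esrp2*, the paralogue of *Esrp1*, rose likewise (0.57, limma adjusted p = 0.0129) and was higher in PRAMEL7WT ESCs than in PRAMEL7ΔN ESCs (0.48, limma adjusted p = 0.0283). *Klf4*, a pluripotency and epithelial factor, was the 1 that fell in PRAMEL7WT ESCs (-0.66, limma adjusted p = 0.0118), in 16 of 20 alternatives. Its value in PRAMEL7ΔN ESCs was 0.25 (limma adjusted p = 0.276), and it was lower in PRAMEL7WT ESCs than there (-0.90, limma adjusted p = 0.00284). *Grhl3* rose in PRAMEL7ΔN ESCs (0.51, limma adjusted p = 0.00587), a call lost without replicate 1 of that line (0.0694). The rise of *Grhl2* was lost without replicate 2 of PRAMEL7WT ESCs (limma adjusted p = 0.0518) and that of *Esrp2* without either library (up to 0.132). Their differences between the derived lines were lost when single libraries of those lines were left out (limma adjusted p up to 0.0854 and 0.233).

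Of 20 other EMT-inducing factors 11 were tested. *Twist2* and *Prrx1* had no reads, and the 9 untested genes, which include *Snai2* and *Twist1*, reached at most 0.703 CPM. In PRAMEL7WT ESCs 1 rose, *Smad3* (against 8.71% of all genes). In PRAMEL7ΔN ESCs *Snai3* and *Tgfbr2* rose (6.25%) and *Smad3*, *Tgfbr1*, *Hmga2* and *Sox4* fell (13.6%). With single libraries left out, 0 to 2 rose and 1 to 5 fell there. Between the derived lines 3 were higher (10.9%) and 1 lower (9.44%) in PRAMEL7WT ESCs. *Smad3*, which carries TGF-β signals to the nucleus, had 18.3 and 22.6 CPM in parental ESCs, 34.93 and 34.90 in PRAMEL7WT ESCs, and 14.9 and 12.7 in PRAMEL7ΔN ESCs. It was higher than in parental ESCs in the former (0.75, limma adjusted p = 0.00557, up to 0.0592 without either library of that line) and lower in the latter (-0.53, limma adjusted p = 0.0251, lost in 7 of 19 alternatives). *Tgfbr1*, a TGF-β receptor gene, fell in PRAMEL7ΔN ESCs (-0.43, limma adjusted p = 0.0232), a call lost in 6 of 19 alternatives, among them those without either library of a derived line (up to 0.137). *Tgfbr2*, the gene of its partner receptor, rose there from 8.10 ± 0.435 to 12.9 ± 0.194 CPM (0.61, limma adjusted p = 0.0181), a call lost without either library of PRAMEL7ΔN ESCs (up to 0.113). *Hmga2*, a chromatin protein gene, fell there from 5.12 ± 0.642 to 2.16 ± 0.214 CPM (limma adjusted p = 0.00395) in each of 18 alternatives, and *Sox4* from 3.29 ± 0.894 to 1.59 ± 0.453 (limma adjusted p = 0.0464) in 4 of 18. *Tcf3*, an E-box factor, was higher in PRAMEL7WT ESCs than in PRAMEL7ΔN ESCs (0.64, limma adjusted p = 0.0374), a call lost in 7 of 20 alternatives, among them those without any single library of these lines (up to 0.241). *Snai3* rose in PRAMEL7ΔN ESCs from 5.86 ± 0.317 to 11.4 ± 0.442 CPM (SD, n = 2, limma adjusted p = 0.00528, or 0.0526 without replicate 2 of that line). *Snai3*, *Tgfbr2*, *Hmga2* and *Sox4* were named after their values were seen.

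Of 35 mesenchymal structural and secreted genes 23 were tested. Unlike *Vim*, most of those that passed were lower in PRAMEL7WT ESCs, where 12 fell and 2 rose with a median of -0.60, against 16.3% called lower and 8.71% higher over all tested genes. In PRAMEL7ΔN ESCs 9 fell and 3 rose with a median of -0.26, against 13.6% and 6.25%. With single libraries left out, the list median lay between -0.60 and -0.53 in PRAMEL7WT ESCs and between -0.44 and -0.16 in PRAMEL7ΔN ESCs. The number called then changed, as it did over all genes. Against the other derived line, 3 were higher (10.9% of all genes) and 7 lower (9.44%) in PRAMEL7WT ESCs (median -0.17). *Thy1*, a surface glycoprotein, had 39.6 and 52.4 CPM in parental ESCs, 20.5 and 21.6 in PRAMEL7WT ESCs, and 42.3 and 37.9 in PRAMEL7ΔN ESCs. It fell in PRAMEL7WT ESCs (-1.08, limma adjusted p = 0.00147) and was lower there than in PRAMEL7ΔN ESCs (-0.89, limma adjusted p = 0.00249). *Mmp2*, a matrix metalloprotease gene, fell in both lines (-0.88 and -0.60, limma adjusted p = 0.00388 and 0.0201). *Fn1*, the fibronectin gene, named after its values were seen, fell in both lines from 1887 ± 480.9 to 1136 ± 20.6 and 1231 ± 69.6 CPM (SD, n = 2, limma adjusted p = 0.00912 and 0.0205). Without either library of the derived line concerned, the calls of *Fn1* were lost (limma adjusted p up to 0.0772 and 0.134), as was that of *Mmp2* in PRAMEL7ΔN ESCs (0.142), while in PRAMEL7WT ESCs *Mmp2* was lost without replicate 2 (0.0529). The 10 fibroblast markers all belong to this list, so their level is no separate evidence. Their sum was 54.0 and 72.6 CPM in parental ESCs, 26.1 and 27.5 in PRAMEL7WT ESCs and 53.9 and 46.9 in PRAMEL7ΔN ESCs. Most of it was *Thy1*, and its part in the result was not tested.

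Individual mesenchymal genes differed strongly between the derived lines, in either direction. *Ddr2*, a collagen receptor, had 72.4 and 68.5 CPM in parental ESCs, 61.3 and 57.2 in PRAMEL7WT ESCs, and 11.5 and 10.4 in PRAMEL7ΔN ESCs. It thus fell with *Vim* in PRAMEL7ΔN ESCs (-2.58, limma adjusted p = 1.94e-06), a call that held in 19 of 19 alternatives. *Cald1*, the caldesmon gene of chromosome 6, had 34.7 and 48.7 CPM in parental ESCs, 26.3 and 25.3 in PRAMEL7WT ESCs, and 95.0 and 94.6 in PRAMEL7ΔN ESCs. Its log2 fold change was 1.19 in PRAMEL7ΔN ESCs (limma adjusted p = 0.000772), where the median of chromosome 6 was 0.25, and -0.65 in PRAMEL7WT ESCs (limma adjusted p = 0.0116), where it was -0.26. The latter call was lost with values centred on the chromosome and without either library of PRAMEL7WT ESCs (limma adjusted p up to 0.0926). *Mmp14*, the gene of a membrane-bound metalloprotease, rose in PRAMEL7ΔN ESCs (1.40, limma adjusted p = 0.000158). *Tpm2*, a tropomyosin gene, fell in PRAMEL7WT ESCs (-0.77, limma adjusted p = 0.00723), a call lost without replicate 1 of that line (0.0778).

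**Figure D5:**
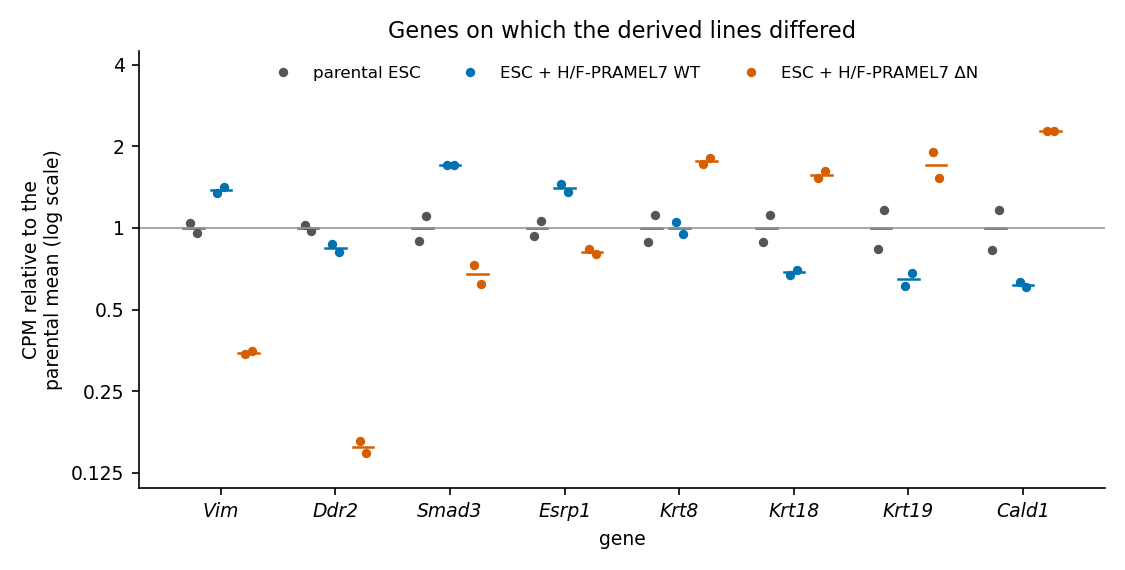
CPM of 8 genes divided by the mean of parental ESCs, on a log scale, in the 6 libraries. Points are libraries and bars are line means. The genes were picked for display because the derived lines differed. *Vim* and *Ddr2* are lowest in PRAMEL7ΔN ESCs, whereas *Krt8*, *Krt18*, *Krt19* and *Cald1* are highest there.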

How the data were processed

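Polyadenylated RNA from 6 libraries had been read as single ends from an unstranded kit. The authors removed ribosomal reads (SortMeRNA 2.1), trimmed (Trimmomatic 0.36), mapped to mm10 (STAR 2.4.0.1) and deposited RPKM per gene. The submitters' processing notes also name Bowtie2 2.3.4.3 and Subread 1.4.6-p4. The methods give triplicates, and the table holds 2 libraries per line. In these deposited RPKM values the length is the whole gene span (GENCODE vM21), since value times span gave whole reads within 0.1 for 98.1 to 98.4% of values up to 20 reads, against at most 42.0% with exon length. Multiplying by span gave CPM with the authors' scaling kept. Of 50978 genes, 176 repeated or date-like names, 2723 unmatched and 72 ambiguous ones were left out.

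For the tests, log2(CPM + 1) of genes above 1 CPM in 2 or more libraries was fitted with limma 3.58.1 (R 4.3.3, trend, 6 libraries in one fit, two-sided, Benjamini-Hochberg over all genes tested, call at adjusted p under 0.05). The test was also run on simulated reads with the same spread (a dispersion of 0.01) for all genes and lines. The real lines differed in spread, so that run does not measure the error rate here. Deposited tables of the authors' own comparisons (fold changes, standard errors, Wald scores, p-values, mean reads) and the 6 ChIP samples were not used. Members and lists were chosen with earlier results of these data known. Named genes were, per list and comparison, up to 3 with the largest change among those called with a mean of at least 10 CPM. Alternatives were other pseudocounts, filters, scalings, variance models, units, blocks and left-out libraries. Python 3.11.15, numpy 2.4.6, pandas 2.3.3 and matplotlib 3.10.9 were used.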

Additional observations from a re-analysis of the deposited data

Results flagged for a closer look

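Listed are the members and list genes named above that differed between PRAMEL7WT ESCs and PRAMEL7ΔN ESCs. The call is that of the direct test of that difference in limma, at an adjusted p under 0.05. Values are log2 differences, PRAMEL7WT ESCs minus PRAMEL7ΔN ESCs. Among the members, *Vim* had 1.97 and *Esrp1* 0.76. Both were on opposite sides of parental ESCs in the 2 lines, with the value of *Esrp1* in PRAMEL7ΔN ESCs not past the threshold.

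Higher in PRAMEL7WT ESCs were also *Ddr2* (2.34), *Cdh4* (1.41), *Smad3* (1.28), *Hmga2* (1.05), *Tcf3* (0.64), *Cldn4* (0.62), *Grhl2* (0.56), *Esrp2* (0.48), *Spint1* (0.46) and *Elf3* (0.37). Lower there were the keratins *Krt19* (-1.33), *Krt18* (-1.12) and *Krt8* (-0.79), and the junction genes *Ocln* (-0.69), *Perp* (-0.64) and *Ctnna1* (-0.44). So were the factor *Klf4* (-0.90), the receptor gene *Tgfbr2* (-0.54), and the mesenchymal genes *Cald1* (-1.84), *Mmp14* (-0.99), *Tpm2* (-0.96) and *Thy1* (-0.89). *Cdh4*, *Hmga2* and *Tgfbr2* were named after their values were seen. *Cald1* lies on chromosome 6, whose median was -0.39 in the same comparison. The calls of *Ctnna1*, *Cldn4*, *Perp*, *Ocln*, *Krt8*, *Grhl2*, *Esrp2*, *Tcf3*, *Spint1*, *Elf3* and *Tgfbr2* were lost when single libraries of these lines were left out.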

How the results depend on the processing

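The number of members called was recomputed under 20 alternative settings. The members called in PRAMEL7WT ESCs numbered 3, and 0 to 3 when single libraries were left out, the lowest without either library of that line, which leaves a lone library assumed to vary like the others. In PRAMEL7ΔN ESCs they numbered 3, and 1 to 5 without single libraries. Between the derived lines they numbered 2 in all of these. The counts over all genes also changed when single libraries were left out. With deposited RPKM above 1 in at least 2 libraries, only 3 members could be tested and 1 passed in each comparison. With the limit of 0.58 on the log2 fold change, 0 passed in PRAMEL7WT ESCs with either p. Values that turned sign under some setting, none of them called, were *Cdh1* in PRAMEL7WT ESCs (0.0063 under median-ratio scaling), *Cdh1* between the derived lines (-0.0024 after centring on chromosomes), *Cdh2* in PRAMEL7ΔN ESCs (-0.12 to 0.15 with single libraries left out) and *Snai1* between the derived lines (-0.12 to 0.40 likewise).

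The replicate numbers did not pair the libraries (correlations of deviations 0.300, -0.344 and -0.132), and with the replicate block 3, 3 and 2 members passed. A crossed block and the centring on chromosomes were added after seeing the data, and the crossed block gave 4, 3 and 2. Over all genes, 3234, 2566 and 2628 of 12914 were called. RPKM gave 361, 271 and 257 of 2347, and no filter gave 1896, 1695 and 1427 of 24916. These counts thus differ partly through the number of genes tested. The crossed block gave 4435, 3417 and 3642 of 12914. With only the compared lines, 2476, 1700 and 4647 of 12914 passed, fewer against parental ESCs and more between the derived lines. Leaving out libraries, the median of the mesenchymal list in PRAMEL7WT ESCs lay between -0.60 and -0.53. *Cdh2*, *Snai1* and *Zeb2* rest on at most 50 reads per library.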
